A study of Mus musculus with 124 samples.

Results

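The liver of mice left undisturbed during the first 6 h of light, the span in which mice mostly sleep and eat little, was described by comparing libraries taken at light onset (ZT0) with libraries taken at the middle of the light phase (ZT6). ZT, zeitgeber time, counts hours from the moment the lights go on. The members were chosen by time of day and condition alone: 8 control livers at ZT0 and 5 control livers at ZT6, which make 13 of the 124 samples of the series, and all 13338 named genes of the liver table were tested. The study collected cerebral cortex and liver of mice around a single 6 h sleep deprivation and measured gene expression by RNA sequencing.

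All mice lived under 12 h of light and 12 h of dark with food always available and were 11 to 12 weeks old. The labels give no transgene, drug or diet, and strain and sex are not given in the sources used here. Of the ZT0 group, 4 mice are labelled T0, at the start of the baseline day, and 4 T24, at its end. The ZT6 group is labelled T6. An undisturbed group at ZT3 (3 mice) lies between them, and undisturbed groups at ZT12 and ZT18 frame the first 6 h of the dark. Mice of the other groups used here had been kept awake by gentle handling from ZT0 to ZT6 of the next day. They were taken at the end of that handling (T30, 3 mice), on a later day at ZT0 and ZT6 (T72 and T78, hours on the study's schedule, 3 mice each), or after 7 days of recovery at ZT0 and ZT6 (T192 and T198, 3 mice each). Each library is the ground liver of 1 mouse, so nothing in these data separates a change in a cell from a change in the number of cells of a type.

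The mammalian clock is a loop of transcription. The activators CLOCK, NPAS2 and BMAL1 (gene Arntl) bind E-box sequences and switch on the Per and Cry genes, whose proteins then repress the activators, while the nuclear receptors REV-ERB (Nr1d1, Nr1d2) and ROR repress and activate Arntl in turn. In liver this loop, together with feeding, fasting, body temperature and hormones, drives daily rhythms in the enzymes of glucose, fat, bile acid and drug metabolism.

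Markers of the labelled tissue were high: all 10 hepatocyte markers were measured, with albumin (Alb) at a geometric mean of 68720 CPM (counts scaled to a common library total) at ZT0 and 76220 at ZT6. Of the listed markers of neutrophils, adipocytes and pancreatic acinar cells, 0 of 7, 0 of 5 and 1 of 8 were in the table. One library of each time stood apart from its group. At ZT0 the root mean square difference over genes was 0.457 to 0.527 log2 units in pairs with T0N3 and 0.329 to 0.405 in the other pairs. At ZT6 it was 0.451 to 0.554 in pairs with T6N3 and 0.344 to 0.436 in the others. Among the 284 genes that changed more than 2-fold, T6N3 was the ZT6 library nearest to the ZT0 mean for 132 (46.5%), against 17 to 77 for each of the other 4. T0N3 was the ZT0 library nearest to the ZT6 mean for 34 (12%). Both belong to the first of the 2 label batches, which hold 4 and 4 of the ZT0 libraries and 3 and 2 of the ZT6 libraries. Counts of a list are also given without T6N3 or T0N3 where they change.

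Between light onset and the middle of the light phase clock genes made the largest changes in both directions. Of 13338 named genes, 2662 (20%) passed a limma test at a Benjamini-Hochberg adjusted p under 0.05. Expression of 1227 genes (9.2%) was higher at ZT6 and that of 1435 (10.8%) was lower. Most of these changes were small: 1824 of the 2662 were under 1.5-fold, and 284 exceeded 2-fold, of which 144 rose and 140 fell. Only 13 exceeded 8-fold. The ZT6 libraries all lay outside the range of the ZT0 libraries for 1208 genes (9.06%), 572 above and 636 below, and 1137 of the 1208 passed the test. Within the first label batch 1133 genes passed and within the second 1001, with fewer mice in each. Of the 2662 genes 2653 (99.7%) had the same direction in both batches. The 2662 were called from these same libraries, so that share was largely fixed in advance. Without library T6N3 the count was 2679, and without T0N3 it was 2462.

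**Figure D1:**
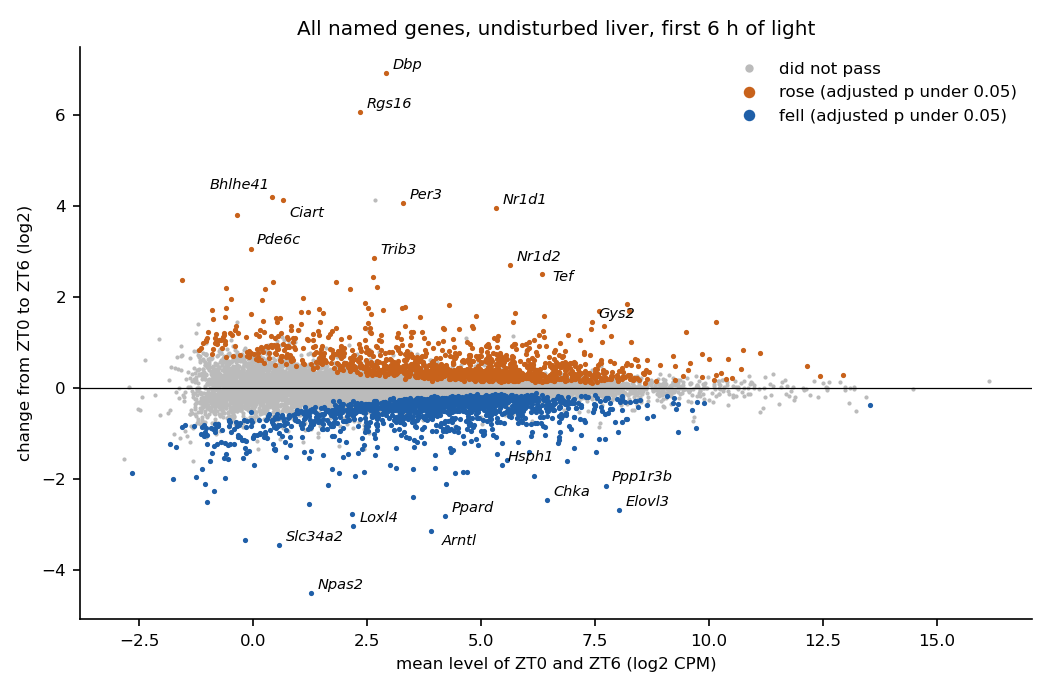
Change from ZT0 to ZT6 (log2, vertical axis) against the mean level of each gene (log2 CPM, horizontal axis) for all 13338 named genes, with 1 point per gene. Orange points (1227) rose and blue points (1435) fell at an adjusted p under 0.05, and Dbp at 6.91 and Npas2 at -4.50 mark the ends of the range.

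The 3 activators of the core clock all fell. Npas2, a partner of BMAL1 in the activator complex (chromosome 1, 39193731 to 39363236, GRCm38), fell furthest of all named genes. Its level at ZT0 ran from 3.24 to 3.93 (median 3.57) log2 CPM, and the 5 ZT6 libraries gave -1.86, -1.29, -1.04, -0.93 and 0.15. The groups were far from overlapping, and the change was -4.50 ± 0.30 (SE, adjusted p = 5.35e-16), a 22.7-fold decrease. Arntl, which encodes BMAL1, lay between 5.08 to 5.67 (median 5.54) log2 CPM at ZT0 and at 1.28, 1.86, 1.94, 2.77 and 3.76 at ZT6. Its change was -3.14 ± 0.30 (SE, adjusted p = 2.76e-11). The ZT6 library with the most Arntl and the most Npas2 was T6N3. Clock, the third activator, fell less, by 0.82 on the log2 scale (adjusted p = 4.04e-05), again without overlap between the groups.

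Of the 8 listed repressors of the loop, 7 rose and Cry1 fell. Per3, a PERIOD protein gene, had nearly the same level in all 8 ZT0 libraries (0.90 to 1.62 (median 1.20) log2 CPM) and 4.61, 5.13, 5.21, 5.61 and 6.06 at ZT6, a change of 4.05 ± 0.20 (SE, adjusted p = 5.90e-21) or 16.6-fold. Ciart, whose product (CHRONO) represses CLOCK and BMAL1, was scarcely detected at ZT0, from -2.75 to -0.013 (median -1.42) log2 CPM, and reached 1.43, 1.71, 2.97, 3.65 and 3.94 at ZT6. Bhlhe41 (DEC2), a repressor that competes for E-boxes, went from -2.34 to -0.29 (median -1.87) to 0.97, 2.48, 2.62, 2.97 and 3.55. No library of these 3 genes overlapped between the times, and Ciart and Bhlhe41 changed by 4.13 and 4.19. Per1 rose by 2.44 ± 0.37 (SE, adjusted p = 2.28e-06) and Cry2, a cryptochrome, by 1.10 ± 0.12 (SE, adjusted p = 6.49e-10). Bhlhe40 (DEC1) rose by 1.04 ± 0.21 (SE, adjusted p = 3.01e-04), with overlapping libraries. Per2 rose least: its ZT0 libraries lay between 3.68 to 4.36 (median 3.90) and its ZT6 libraries at 4.04, 4.12, 4.84, 5.04 and 5.42, which overlapped. Its change was 0.71 ± 0.24 (SE, adjusted p = 0.0274), a call that was lost without T0N5, J76N1, T6N2 or T6N4 (adjusted p from 0.0536 to 0.141). Cry1, a cryptochrome gene whose expression is known to peak later than that of the Per genes, ran the other way, from 3.95 to 5.15 (median 4.68) to 1.99, 2.24, 2.26, 2.31 and 2.77, a change of -2.39 ± 0.18 (SE, adjusted p = 8.79e-15).

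Both REV-ERB genes rose. Nr1d1 (REV-ERB alpha) reached 7.04, 7.10, 7.37, 7.38 and 7.70 log2 CPM at ZT6 from 2.03 to 5.25 (median 2.96) at ZT0, a change of 3.95 ± 0.41 (SE, adjusted p = 3.94e-10). Its ZT0 libraries were the most spread of the core clock genes, with 3 of the 8 above 4.5 log2 CPM and 5 below 3, and all 8 stayed below every ZT6 library. Nr1d2 (REV-ERB beta) rose by 2.69 ± 0.20 (SE, adjusted p = 7.37e-15). Rora, a receptor that acts on the same sequence as REV-ERB with the opposite sign, gave 0.035 ± 0.13 (SE, adjusted p = 0.893). The PAR bZIP factors Dbp, Tef and Hlf are outputs of the clock that bind D-box sequences and control enzymes of drug and sterol metabolism. Dbp (chromosome 7, 45705088 to 45710203) showed the largest rise of all named genes, from -1.81 to 0.55 (median -0.49) log2 CPM at ZT0 to 5.89, 6.11, 6.54, 6.54 and 6.92 at ZT6. The change of 6.91 ± 0.32 (SE, adjusted p = 1.09e-21) corresponds to 121-fold. Tef rose by 2.49 ± 0.13 (SE, adjusted p = 5.90e-21) and Hlf by 0.63 ± 0.13 (SE, adjusted p = 2.69e-04). Nfil3 (E4BP4), which competes with them for the D-box, fell from 5.21 to 5.78 (median 5.55) to 2.86, 3.53, 3.59, 4.04 and 4.36, a change of -1.84 ± 0.24 (SE, adjusted p = 1.52e-07). Among 10 modifiers of clock proteins 3 rose, of which Usp2, a deubiquitinase, changed by 2.21 ± 0.30 (SE, adjusted p = 2.64e-07) and Btrc, a ubiquitin ligase subunit, by 0.35.

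**Figure D2:**
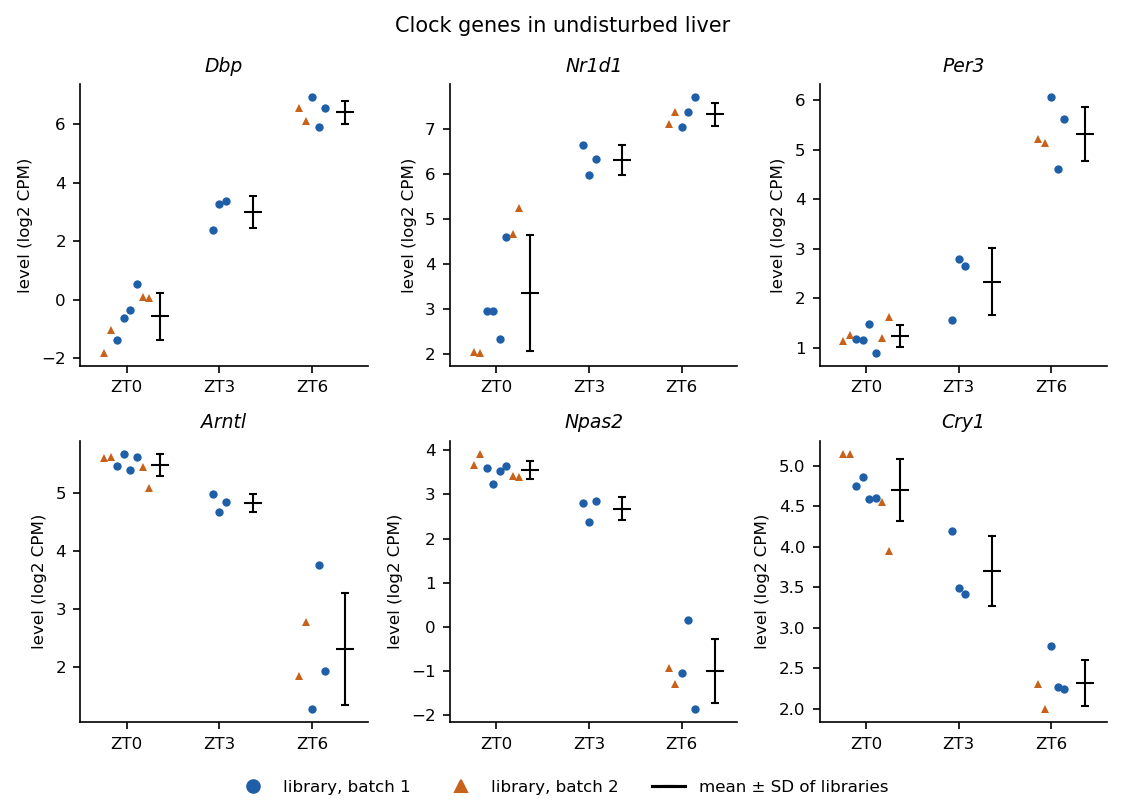
Level (log2 CPM, vertical axis) of 6 clock genes in each undisturbed library at ZT0 (8), ZT3 (3) and ZT6 (5), with circles for batch 1, triangles for batch 2 and bars for the mean ± SD. At ZT6 Dbp, Nr1d1 and Per3 lay above and Arntl, Npas2 and Cry1 below all ZT0 libraries.

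Sequences before a start site of Ciart, Per3, Nfil3 and Hsph1 hold matches to elements of the clock and of the heat shock response. They are the 250 bases before the RefSeq start of lowest coordinate (GRCm38.p6), written 5′ to 3′ on the gene's strand. The motif letters are in capitals: the E-box CACGTG in Ciart and Hsph1, the D-box TTATGTAA in Per3, TGACCTA in Nfil3, which is the reverse strand of the REV-ERB and ROR element TAGGTCA, and TTCTCGAA in Hsph1, a match to the heat shock element TTCNNGAA. All 4 genes lie on the minus strand, and Hsph1 encodes the chaperone described further on.
Ciart (chr3:95882229-95882478): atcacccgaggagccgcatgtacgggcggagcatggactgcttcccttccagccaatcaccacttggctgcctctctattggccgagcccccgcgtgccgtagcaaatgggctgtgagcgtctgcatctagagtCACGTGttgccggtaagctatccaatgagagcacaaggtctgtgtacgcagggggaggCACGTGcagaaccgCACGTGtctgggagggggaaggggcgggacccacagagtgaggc
Per3 (chr4:151044666-151044915): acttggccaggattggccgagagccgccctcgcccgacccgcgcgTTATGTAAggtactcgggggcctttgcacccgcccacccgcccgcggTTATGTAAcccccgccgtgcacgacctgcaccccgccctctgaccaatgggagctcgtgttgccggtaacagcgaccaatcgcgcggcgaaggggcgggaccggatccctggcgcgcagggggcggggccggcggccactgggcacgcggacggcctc
Nfil3 (chr13:52981040-52981289): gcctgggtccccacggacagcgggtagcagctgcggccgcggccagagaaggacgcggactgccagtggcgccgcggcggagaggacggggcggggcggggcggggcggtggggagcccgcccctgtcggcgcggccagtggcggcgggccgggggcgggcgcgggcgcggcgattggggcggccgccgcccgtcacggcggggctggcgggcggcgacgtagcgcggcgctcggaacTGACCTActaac
Hsph1 (chr5:149636316-149636565): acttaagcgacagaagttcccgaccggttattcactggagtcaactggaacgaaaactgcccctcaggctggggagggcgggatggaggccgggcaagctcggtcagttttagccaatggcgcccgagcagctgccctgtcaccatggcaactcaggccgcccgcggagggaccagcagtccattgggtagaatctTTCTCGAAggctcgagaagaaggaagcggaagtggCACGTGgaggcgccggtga
Ciart held 3 E-boxes, whose first bases lay 116, 58 and 44 bases before the start, and Per3 held 2 D-boxes, 205 and 158 bases before it. The element in Nfil3 began 12 bases before the start. In Hsph1 the heat shock element shown began 54 and the E-box 19 bases before the start used. From another Hsph1 start, further upstream, the same 2 elements began 33 bases before and 2 bases after. Both strands were searched, in windows from 250 bases before to 50 after the start, for those motifs, for TGGGTCA as a second form of the ROR element and for the cAMP element TGACGTCA. Of 32851 promoter windows of that length, 7.15% held the E-box, 0.938% the D-box, 6.45% a ROR element, 1.79% the cAMP element and 8.52% the heat shock element. CACGTG, TTCNNGAA and TGACGTCA read the same on both strands, and no 2 motifs overlapped in the 4 sequences. Of 16 genes of the 4 clock lists with a window, 5 held an E-box, 2 a ROR element, 1 a D-box and 1 the cAMP element. Counted by gene and not by window, the shares among all 27025 genes were 8.09%, 7.35%, 1.11% and 2.03%. No motif was found in the windows of Dbp, Nr1d1 and Npas2. Of 18 genes of the heat shock list with a window, 5, Hsph1 among them, held the heat shock element. That is 27.8%, beside 9.6% of all genes. The windows of the chaperone genes Hspa1b, Hspb1 and Dnajb1 held no motif. A match is a string of letters, and binding was not measured.

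The largest rises and falls also included genes outside the clock lists. Rgs16, a regulator of G-protein signalling (chromosome 1, 153740349 to 153745468), ran from -2.99 to 1.44 (median -0.81) log2 CPM at ZT0 to 4.88, 4.96, 5.0, 6.04 and 6.18 at ZT6, a change of 6.06 ± 0.55 (SE, adjusted p = 5.68e-12). Pde6c, a cone phosphodiesterase subunit, rose by 3.06 ± 0.39 (SE, adjusted p = 7.65e-08) from levels under 1 CPM. Trib3, a pseudokinase that binds AKT, rose by 2.85 ± 0.25 (SE, adjusted p = 1.93e-12), with no overlap between the groups. Among the falls, Slc34a2, a sodium-phosphate cotransporter, changed by -3.45 ± 0.37 (SE, adjusted p = 1.07e-09) and Loxl4, a lysyl oxidase of the matrix, by -3.04 ± 0.31 (SE, adjusted p = 2.16e-10). Ppard, the nuclear receptor PPAR delta, went from 5.18 to 5.92 (median 5.73) log2 CPM to 2.51, 2.62, 2.73, 2.98 and 3.18, a change of -2.81 ± 0.16 (SE, adjusted p = 1.11e-18). Elovl3, a fatty acid elongase, lay between 8.90 to 9.70 (median 9.49) at ZT0 and at 6.08, 6.31, 6.91, 6.98 and 7.15 at ZT6, a 6.45-fold decrease. Cdkn1a, the cell cycle inhibitor p21, fell by 2.76, the ring finger gene Lonrf3 by 2.54 and Chka, choline kinase alpha, by 2.45 on the log2 scale. Library T6N3 had the highest Chka of the ZT6 group, and without it the fall was 2.76. In each of these genes every ZT6 library lay outside the ZT0 range, as the naming rule required. Among the 10 largest rises and the 10 largest falls, 1 gene model each had no gene name.

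The gene lists are described by their counts, to be set beside 9.2% of all genes higher, 10.8% lower and 20% called in all, with a median change of -0.01. Of 22 measured heat shock chaperones, a list that is mostly cytosolic and holds the mitochondrial Hspd1 and Hspe1, 16 fell (72.7%) and 0 rose, with a median of -0.49 log2 units. The change was negative in all 22. Hsph1, an HSP110 co-chaperone, ran from 6.06 to 6.78 (median 6.25) log2 CPM at ZT0 to 4.19, 4.24, 4.34, 4.41 and 5.81 at ZT6. Its change was -1.70 ± 0.22 (SE, adjusted p = 6.69e-08). Hspa8, the constitutive HSC70, lay between 9.35 to 10.14 (median 9.84) at ZT0 and at 8.64, 8.70, 8.80, 8.85 and 9.31 at ZT6, and Chordc1, an HSP90 partner, between 5.64 to 5.95 (median 5.80) and at 4.90, 4.95, 4.97, 4.97 and 5.48. They changed by -0.96 ± 0.17 (SE, adjusted p = 3.32e-05) and -0.75 ± 0.12 (SE, adjusted p = 4.08e-06). Fkbp4, an HSP90-bound immunophilin, fell by 0.64. The inducible Hspa1b and Hsp90aa1 fell by 1.79 and 1.03, whereas Hspd1 gave -0.069 ± 0.078 (SE, adjusted p = 0.595). In all 4 of Hsph1, Hspa8, Chordc1 and Fkbp4 the ZT6 library nearest to ZT0 was T6N3. Without it the list again had 16 falls of 22, with a median of -0.59, and without T0N3 it had 15.

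A list of chaperones and protein degradation genes of the endoplasmic reticulum fell in part. Of 22 measured members 10 fell (45.5%, beside 10.8% of all genes) and 1 rose, with a median of -0.36. Syvn1, the ubiquitin ligase HRD1, ran from 6.87 to 7.54 (median 7.39) log2 CPM to 5.84, 5.84, 5.92, 6.01 and 6.79, a change of -1.21 ± 0.18 (SE, adjusted p = 1.98e-06). Hyou1, a chaperone of the HSP70 family, and Manf, a secreted stress-induced factor, changed by -1.11 ± 0.21 (SE, adjusted p = 8.70e-05) and -1.06 ± 0.23 (SE, adjusted p = 6.29e-04), and Edem1, of the degradation pathway, by -0.52 ± 0.086 (SE, adjusted p = 1.40e-05). Hyou1 and Manf overlapped between the groups through library T6N3, which held 7.90 log2 CPM of Hyou1 where the other 4 ZT6 libraries held 6.89 to 7.05. Without T6N3 the list had 13 falls and 1 rise, and without T0N3 it had 9 falls and 0 rises. The member that rose, Herpud1, is itself induced by stress of this organelle and changed by 0.43 ± 0.16 (SE, adjusted p = 0.0412). Hspa5 (BiP), its central chaperone, fell by 0.88. Of 12 measured genes of the integrated stress response 4 fell (33.3%) and 1 rose: the growth inhibitor Ddit4 by -1.86, Atf5 by -0.83, Atf4 by -0.47 and Ddit3 (CHOP) by -0.96, against the rise of Trib3. The cold-induced RNA-binding protein gene Cirbp rose from 3.57 to 4.33 (median 4.04) log2 CPM to 4.39, 4.75, 4.88, 5.02 and 5.24, a change of 0.90 ± 0.15 (SE, adjusted p = 2.39e-05). Its relative Rbm3 gave 0.35 ± 0.13 (SE, adjusted p = 0.0504), which missed the threshold. It passed under 11 of 27 alternatives, most of them other fits or scalings, with an adjusted p from 0.00844 (0.47, without T6N3) to 0.488 over all 27.

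**Figure D3:**
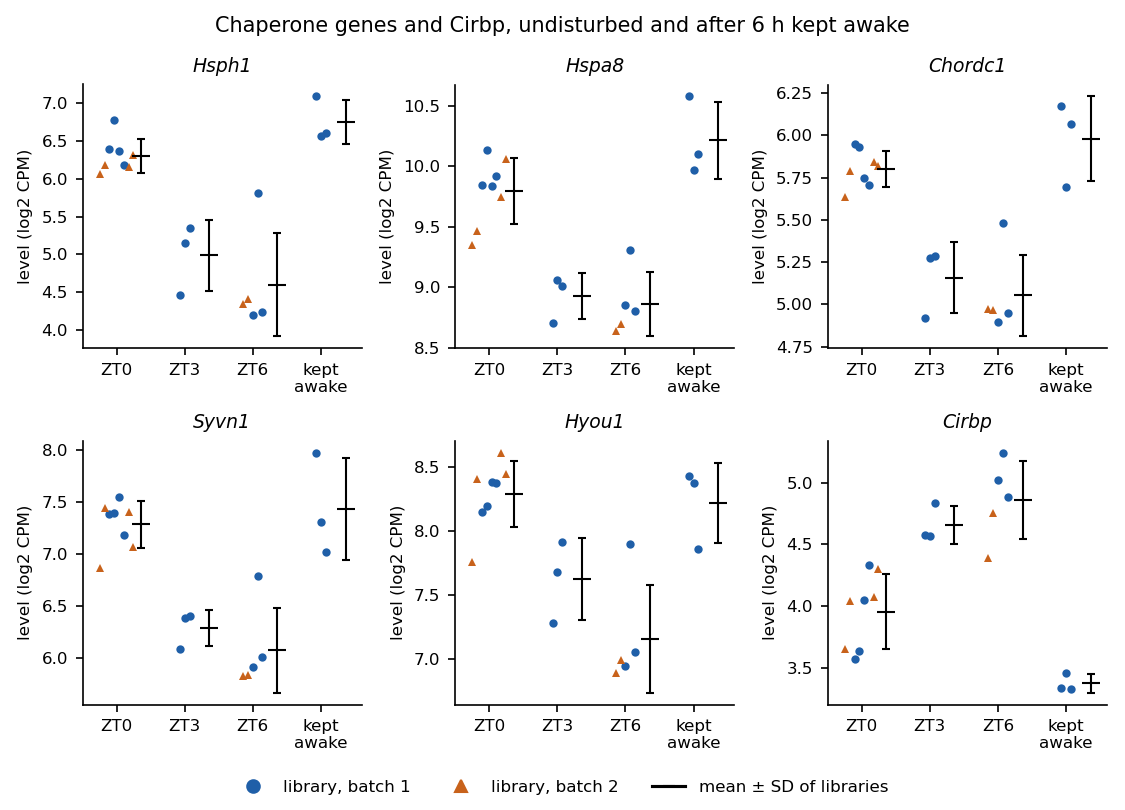
Level (log2 CPM, vertical axis) of 5 genes of the heat shock and endoplasmic reticulum lists and Cirbp in each library of undisturbed liver at ZT0 (8), ZT3 (3) and ZT6 (5) and of mice kept awake until ZT6 (T30, 3), with bars for the mean ± SD. Hsph1, Hspa8 and Chordc1 were lower at ZT3 and ZT6 than at ZT0, and the ZT6 library nearest to ZT0 in these 3 genes is T6N3.

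Of 15 measured genes of glycogen handling 8 rose (53.3%, beside 9.2% of all genes) and 3 fell (20%, beside 10.8%), with a median of 0.39. Without T6N3, 2 fell. Gys2, the liver glycogen synthase (chromosome 6, 142422613 to 142473109), ran from 6.48 to 6.96 (median 6.70) log2 CPM to 7.72, 8.10, 8.22, 8.27 and 8.50 at ZT6, a change of 1.46 ± 0.13 (SE, adjusted p = 1.94e-12). Ugp2, which makes UDP-glucose, and Phka2, a subunit of phosphorylase kinase, rose by 0.62 ± 0.088 (SE, adjusted p = 8.08e-07) and 0.58 ± 0.089 (SE, adjusted p = 2.62e-06). The targeting subunits that bring protein phosphatase 1 to glycogen split by member. Ppp1r3b, the main subunit of liver, went from 8.53 to 9.16 (median 8.75) log2 CPM to 6.49, 6.53, 6.60, 6.71 and 6.99, a fall of 2.14, and Ppp1r3c fell by 1.32, while Ppp1r3g, known to be induced in fasted liver, rose by 2.37 ± 0.66 (SE, adjusted p = 0.00734). Pygl, the phosphorylase that breaks glycogen down, fell by 0.17 (adjusted p = 0.0294).

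Of 13 genes of glucose synthesis and release 5 rose (38.5%, beside 9.2% of all genes) and 0 fell, and without T6N3 or without T0N3 there were 5 rises and 1 fall. Slc2a2 (GLUT2), the glucose transporter of hepatocytes, rose by 1.00 ± 0.11 (SE, adjusted p = 2.45e-09), Lpin2, a phosphatidate phosphatase, by 1.14 ± 0.18 (SE, adjusted p = 7.73e-06), the transcription factor Foxo3 by 0.70 ± 0.09 (SE, adjusted p = 7.65e-08) and Slc37a4, the glucose-6-phosphate translocase, by 0.52 ± 0.10 (SE, adjusted p = 1.56e-04). Pck1, the enzyme that commits to gluconeogenesis, rose by 1.44 ± 0.33 (SE, adjusted p = 0.00138). The last enzyme of the path, G6pc, gave -0.77 ± 0.39 (SE, adjusted p = 0.170) and did not pass. Among 15 genes of glucose use 2 rose and 1 fell, which is the 20% called among all genes, and 3 rose without T6N3. Pfkl, the liver phosphofructokinase, fell by 0.34 and the insulin receptor Insr rose by 0.30, a call that was lost without T0N9, J76N1, J76N2 or T6N4 (adjusted p from 0.0622 to 0.0998).

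Genes of fat metabolism moved in both directions. Of 30 genes of the PPAR alpha pathway, fatty acid oxidation and ketone synthesis 7 rose (23.3%, beside 9.2% of all genes) and 3 fell (10%, beside 10.8%), with a median of 0.17. Without T0N3, 5 rose and the median was 0.06. Angptl4, an inhibitor of lipoprotein lipase, rose by 1.57 ± 0.32 (SE, adjusted p = 3.27e-04) and Cpt1a, the gate of fatty acid entry into mitochondria, by 0.63 ± 0.13 (SE, adjusted p = 2.77e-04). Pdk4, the kinase that turns off pyruvate dehydrogenase in fasting, fell from 3.21 to 5.11 (median 4.58) log2 CPM to 1.32, 2.23, 2.47, 2.79 and 4.21, with T6N3 inside the ZT0 range, and Plin5, a lipid droplet protein, fell by 0.94. In the 20 genes of fat synthesis 3 rose and 3 fell (30% in all, beside 20% of all genes), with a median of -0.11. Without T6N3, 3 rose and 2 fell, with a median of 0.0011, and without T0N3, 2 rose and 3 fell. Lpin1 rose by 1.46 ± 0.33 (SE, adjusted p = 9.26e-04), where T6N3 again lay within the ZT0 range, and Dgat2 by 0.33 ± 0.069 (SE, adjusted p = 4.04e-04). Agpat2 fell by 0.76 and Elovl5 by 0.62, and the fatty acid synthase gene Fasn gave -0.12 ± 0.33 (SE, adjusted p = 0.855). Of 26 genes of cholesterol synthesis only Insig2, which holds back the sterol sensor, passed, with a change of -1.13 ± 0.14 (SE, adjusted p = 3.52e-08). Without single libraries the list's count ran up to 4, with 1 rise and 1 fall without T6N3.

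Of 21 genes of bile acid synthesis and of sterol and bile acid transport 8 rose (38.1%, beside 9.2% of all genes) and 1 fell, with a median of 0.20. Without T6N3, 6 rose and 1 fell, and without T0N3, 7 rose and 2 fell. Abcg5 and Abcg8, whose products form the sterol exporter of the canalicular membrane, rose by 0.91 ± 0.14 (SE, adjusted p = 2.29e-06) and 0.99 ± 0.16 (SE, adjusted p = 5.28e-06). Abcc2 (MRP2), an exporter of conjugates, rose by 0.74 ± 0.12 (SE, adjusted p = 4.82e-06) and Slc10a1 (NTCP), the bile acid importer of the sinusoidal side, by 0.49 ± 0.075 (SE, adjusted p = 2.65e-06). The groups did not overlap in these 4 genes. Cyp8b1, the sterol 12-alpha-hydroxylase, fell by 0.69 (adjusted p = 0.00457), and the rate-limiting enzyme gene Cyp7a1 gave -0.49 ± 0.35 (SE, adjusted p = 0.360). Of 21 measured genes of cytochrome P450 drug metabolism 4 rose and 0 fell, 19% called beside 20% of all genes, and without T6N3 1 fell. Cyp2a5, which oxidises coumarin and nicotine, rose from 6.60 to 8.06 (median 7.56) log2 CPM to 8.40, 9.09, 9.11, 9.29 and 9.52. Por, the reductase that serves all microsomal P450 enzymes, rose by 0.78 ± 0.12 (SE, adjusted p = 1.89e-06), Cyp3a25 by 0.64 ± 0.14 (SE, adjusted p = 0.00105) and Cyp2e1 by 0.48 ± 0.12 (SE, adjusted p = 0.00226). Cyp2a5 has a near-identical neighbour, Cyp2a4, which gave 0.89 (adjusted p = 0.336), and the counting of reads that fit both was not given in the sources used here. Conjugating enzymes had 2 rises and 2 falls among 20, the share of all genes. Without T6N3, 1 of them rose and 2 fell, and without T0N3, 1 rose and 3 fell.

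Of 15 genes of autophagy 5 rose (33.3%, beside 9.2% of all genes) and 0 fell, with 6 rises without T6N3 or T0N3. Ulk1, the kinase that starts autophagy, rose by 0.91 ± 0.13 (SE, adjusted p = 3.86e-07), the mitophagy receptor Bnip3 by 0.71 ± 0.091 (SE, adjusted p = 7.65e-08), Gabarapl1 by 0.50 and Atg14 by 0.47. Of 29 nucleolar genes 6 fell and 1 rose, 24.1% called beside 20% of all genes, and 7 fell without T0N3. Nolc1, a nucleolar chaperone, fell by 0.94, Rrp12 by 0.68, Nop16 by 0.52 and Nop14 by 0.38. Of 15 genes that respond to glucocorticoids 3 rose and 3 fell (40% called), and 2 fell without T6N3: Per1 and Klf9 (0.72) rose with Fkbp5 (0.67), and Cdkn1a and Tsc22d3 (-0.76) fell with Dusp1 (-0.78). Among 21 immediate early genes 3 rose and 1 fell, 19% called beside 20% of all genes, and 2 rose and 2 fell without T6N3, with Klf10 at 1.56 ± 0.28 (SE, adjusted p = 5.52e-05), Junb at 1.05 and Ier5 at -0.78. Wee1, a kinase that holds cells before mitosis and a known clock target, rose by 1.86 ± 0.20 (SE, adjusted p = 1.23e-09). Of 12 measured cell division genes 8 did not pass, so the share called was above the 20% of all genes. Without T6N3 10 of 12 did not pass, a share called below 20%, and without T0N3 9 of 12 did not.

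Several lists held few called genes or none. Of 14 apolipoprotein and 18 acute phase genes none passed, and the largest changes either way were 0.17 and -0.36 in the first list and 0.26 and -0.63 in the second. At an unadjusted p under 0.05 the whole table held 4226 genes, so small changes in these lists remain possible, and without T0N3 1 acute phase gene rose. Of 85 genes listed by ribosomal protein names 3 fell, with a median of -0.05. The 3 were Rpl36al, Rpl7l1 and Rps19bp1, the last of which is named for a protein that binds RPS19. Of 85 respiratory chain genes, with assembly factors such as Ndufaf1 among them, 2 rose, with a median of -0.04. Of 38 proteasome genes 3 rose and 2 fell. Without T0N3, 1 respiratory chain gene rose, and without T6N3, 2 proteasome genes rose. Markers of Kupffer cells, stellate cells and sinusoidal endothelium had 0 calls among 11, 10 and 10, and red cell markers 0 among 5. Of 6 bile duct markers Sox9 fell by 1.24 and Epcam gave 0.74 with an adjusted p of 0.0498, a call that was lost without T0N2, T0N3, T0N8, T0N9, J70N2, T6N2 or T6N4 (adjusted p from 0.0547 to 0.204). Cela2a, the single pancreatic marker measured, gave 1.09 ± 0.40 (SE, adjusted p = 0.0476) from levels under 1 CPM, a call that was lost without J70N1, T0N1, T0N2, T0N8, T0N9, J76N1, T6N2, T6N3 or T6N4, with the lowest value of 0.66 (adjusted p = 0.268) without T6N3.

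**Figure D4:**
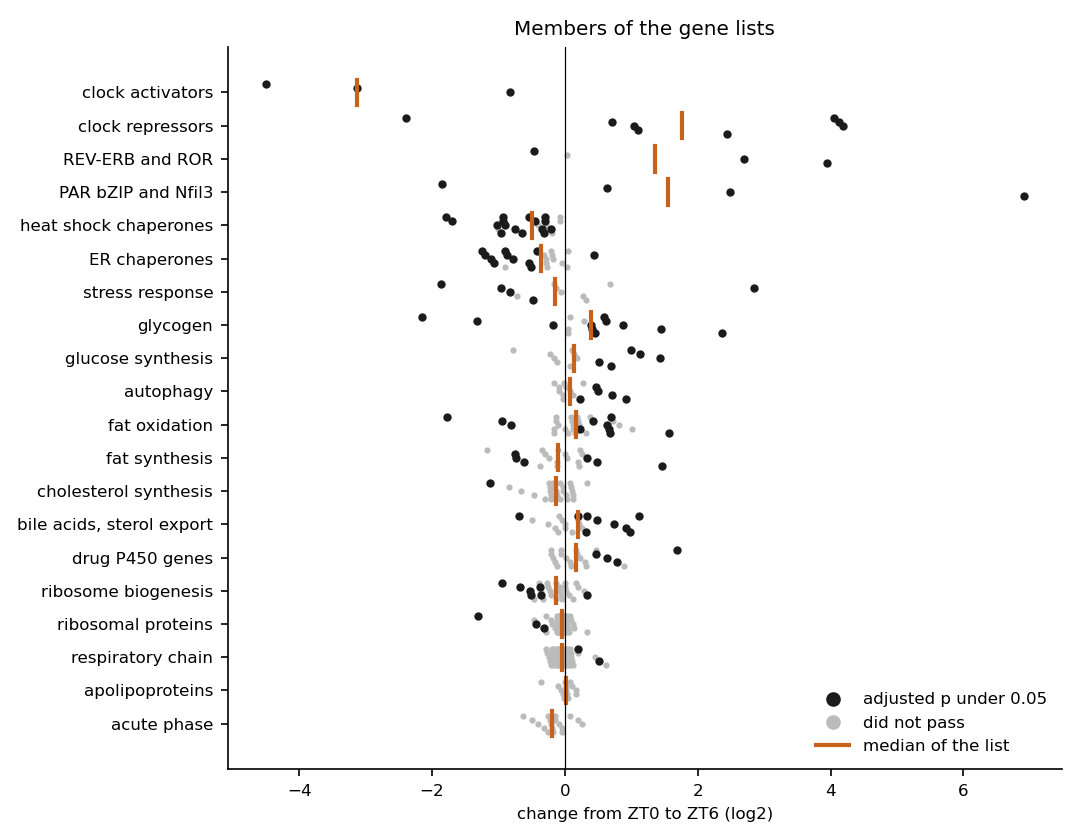
Change from ZT0 to ZT6 (log2, horizontal axis) of each measured member of 20 gene lists (vertical axis), with 1 point per gene, black where the adjusted p was under 0.05, and an orange line at the list's median. Clock lists span the widest range, all 22 heat shock chaperones lie below 0, and the ribosomal, respiratory, apolipoprotein and acute phase lists crowd around 0.

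The ZT3 libraries placed some changes in the first 3 h and others in the second. Between ZT0 and ZT3, 45 genes (0.337%) passed, 17 higher and 28 lower, and between ZT3 and ZT6, 263 (1.97%) passed, 126 higher and 137 lower. Both comparisons use the same 3 ZT3 libraries, all of the first label batch, and each shares a group with the 6 h comparison. A ZT3 mean that is low or high by chance therefore moves both steps of a gene, in opposite directions. Some genes below were picked for a steep step, and whether the 2 steps of a gene differ was not tested. Their counts rest on few mice. Without T3N2, T3N3 or T3N4 the first count was 17, 13 and 11, and without T0N1 or T0N2 it was 25 and 26. For the second, leaving out those ZT3 libraries gave 165, 134 and 123, and leaving out T6N2 or T6N4 gave 157 and 160. Within the first batch 20 and 135 genes passed.

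Ppard made most of its fall in the first 3 h, changing by -2.16 ± 0.20 (SE, adjusted p = 4.29e-10), and by -0.66 in the second. Its ZT3 libraries stood at 3.22, 3.49 and 3.72 log2 CPM, all below the ZT0 group. Hsph1 also fell early, by -1.29 ± 0.27 (SE, adjusted p = 0.0124) at ZT3 and -0.41 after it, with ZT3 libraries at 4.46, 5.15 and 5.35. In the list of heat shock chaperones 4 of 22 fell by ZT3 (median -0.36), and from ZT3 to ZT6 none passed (median -0.06). Banp, which encodes a nuclear matrix protein, gave -1.31 from ZT0 to ZT3 and 0.64 from ZT3 to ZT6, 2 steps that share the ZT3 libraries. Nr1d1 made most of its rise early, with ZT3 libraries at 5.97, 6.32 and 6.64 and changes of 2.92 and 1.03, and Nr1d2 did so too, with 1.80 and 0.89. Dbp divided its rise nearly evenly, 3.34 and 3.58.

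Other genes made the larger part of their change after ZT3. Npas2 held 2.38, 2.80 and 2.85 log2 CPM at ZT3 and changed by -0.65 and then by -3.85 ± 0.40 (SE, adjusted p = 6.25e-09). Arntl gave -0.51 and -2.62, Slc34a2 -1.08 and -2.37, and Loxl4 -0.86 and -2.18. Rgs16 rose late, with ZT3 libraries at 0.19, 0.48 and 1.40 and changes of 1.04 and 5.03 ± 0.72 (SE, adjusted p = 8.43e-06). Ciart and Bhlhe41 each gained 3.36 after ZT3. Usp2 was lowest at ZT3, at 0.23, 0.49 and 1.41 log2 CPM, before rising by 3.20 ± 0.39 (SE, adjusted p = 3.32e-07). The metabolic genes Gys2 (0.18, then 1.27), Lpin2 (0.039, then 1.10) and Ppp1r3b (-0.38, then -1.77) also had their larger step after ZT3.

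The same span was measured in other mice, days after sleep deprivation. From T72 to T78, 1278 genes (9.58%) passed, and from T192 to T198, 568 (4.26%), with 3 mice at each time and no library shared with the undisturbed comparison. Of the 2662 genes called in undisturbed liver, 2584 (97.1%) had the same direction from T72 to T78 and 2504 (94.1%) from T192 to T198, beside 75.8% and 72.3% of all genes. Those called in both with the same direction numbered 998 for T72 to T78 (37.5% of the undisturbed list and 78.1% of the other) and 484 for T192 to T198 (18.2% and 85.2%), and 0 were called in opposite directions. In all 3 spans 334 genes passed in the same direction, 144 of them rises and 190 falls. Counts of the smaller groups moved with single mice: without T72S2, T72S3, T78S3 or T78S4 the first was 479, 566, 709 and 689, and without J70S1, J70S2, J76S2 or J76S3 the second was 374, 351, 343 and 331.

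Some genes and lists gave similar values in these other mice and some did not. Dbp changed by 6.91 in undisturbed liver, 6.84 from T72 to T78 and 6.94 from T192 to T198, and Npas2 by -4.50, -4.58 and -5.09. Over the 284 genes past 2-fold the median ratio of the other mice's change to the undisturbed change was 0.935 and 0.818. The 284 were chosen for large changes in undisturbed liver, which by itself lowers such ratios, so they do not measure a weaker change. Of all genes 4.35% were higher and 5.23% lower from T72 to T78, and 1.81% and 2.44% from T192 to T198. The heat shock chaperones fell in 12 of 22 genes from T72 to T78 and 6 of 22 from T192 to T198, with medians of -0.52 and -0.37, and Hsph1 by 1.80 and 1.46. Gys2 rose by 1.06 and 1.27, and Ppp1r3b fell by 1.38 and 1.20. Cholesterol synthesis went from 1 fall and 0 rises of 26 (median -0.13) in undisturbed liver to 4 rises and 1 fall (median 0.44) from T72 to T78 and 1 rise and 2 falls (median -0.03) from T192 to T198. The medians of fat synthesis were -0.11, 0.31 and 0.18. This list had 1 rise and 1 fall of 20 in each span of the other mice, near the shares of all genes from T72 to T78. Angptl4 gave 0.30 (adjusted p = 0.763) and 1.05 (adjusted p = 0.223), and Elovl5 gave 0.025 and -0.59. Whether these changes differed from those of undisturbed liver was not tested.

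Genes called both in the light span and in the first 6 h of the dark, when mice wake and eat, mostly moved in opposite directions. From ZT12 to ZT18, 3917 genes (29.4%) passed in undisturbed liver, 14.2% higher and 15.2% lower. The light span and the dark span share no library, and their changes differed in 4168 genes (31.2%) by a test of the difference. Of 1318 genes called in both spans 1132 (85.9%) moved in opposite directions and 186 in the same one. The share of opposite directions over all genes, called or not, was not counted. The difference was largest for Rgs16, which changed by 6.06 in the light and -5.20 in the dark, a difference of 11.27 ± 0.81 (SE, adjusted p = 1.87e-15). Dbp gave 6.91 and -3.50, Ciart 4.13 and -3.46, and Nr1d1 3.95 and -3.41. On the falling side stood Npas2 (-4.50 and 3.83), Arntl (-3.14 and 3.62), Slc34a2 (-3.45 and 3.28) and Elovl3 (-2.69 and 3.71).

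Other members gave no opposite pair of changes. Ppp1r3b fell in the light and gave 0.073 (adjusted p = 0.849) in the dark, and Cry2 rose in the light and gave -0.013 (adjusted p = 0.958). Hspa8 fell in both spans, by 0.96 and 0.62, and so did the nucleolar genes Nolc1 (-0.94 and -0.68) and Rrp12 (-0.68 and -0.68). By list, beside the 14.2% and 15.2% of all genes in the dark, glucose synthesis had 0 rises and 7 falls (53.8%) there, against 5 and 0 in the light (5 and 1 without T6N3), and glycogen had 1 and 7 (46.7% lower) there, against 8 and 3. Heat shock chaperones had 0 rises and 16 falls in the light and 8 and 4 in the dark (36.4% and 18.2%), and nucleolar genes 1 and 6 in the light and 1 and 17 (58.6% lower) in the dark.

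**Figure D5:**
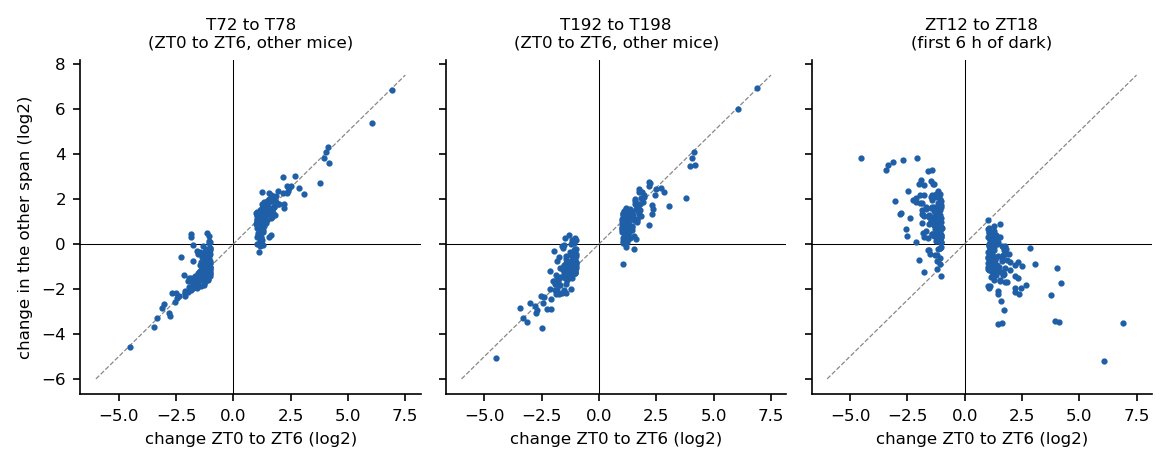
Change of the 284 genes past 2-fold in undisturbed liver from ZT0 to ZT6 (log2, horizontal axes) against their change (log2, vertical axes) from T72 to T78, from T192 to T198 and from ZT12 to ZT18, with 1 point per gene and a dashed line where both are equal. The first 2 panels follow the line (273 and 274 genes with the same sign), and in the third most genes lie on the opposite side of 0.

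Mice kept awake through the same 6 h were set beside the undisturbed ZT6 group, which both comparisons share. At T30, 1922 genes (14.4%) differed from ZT6, 952 higher and 970 lower. The count was 662 without T30S1 and 1214 within the first label batch, to which all 3 T30 libraries belong. Few clock genes passed: relative to ZT6, Dbp gave -0.38 (adjusted p = 0.606), Arntl -0.13 (adjusted p = 0.869) and Npas2 -0.32 (adjusted p = 0.656). Of the 19 genes of the 4 core clock lists 1, Cry2, passed (-0.68, adjusted p = 0.00179).

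Most genes of the heat shock and endoplasmic reticulum lists were higher at T30 than in undisturbed mice at ZT6. Hsph1 in the 3 T30 libraries lay between 6.56 and 7.09 log2 CPM, above all 5 ZT6 libraries and 2.18 ± 0.28 (SE, adjusted p = 9.92e-07) above their mean. In that comparison 7.14% of all genes were higher at T30 and 7.27% lower. Of 22 heat shock chaperones 17 were higher and 0 lower (median 0.69). Of the 22 genes of the endoplasmic reticulum list 14 were higher and 0 lower (median 0.53). Hspa8 was 1.25 and Syvn1 1.35 higher. Cirbp, at -1.50 (adjusted p = 1.77e-06), Pde6c, at -4.03 (adjusted p = 7.44e-07), and Trib3, at -1.83 (adjusted p = 1.14e-04), were lower than at ZT6, and all 3 had risen in undisturbed mice. Lpin1 was 1.74 higher, while Gys2 gave -0.13 (adjusted p = 0.647) and Ppp1r3b 0.57 (adjusted p = 0.151). Food intake and sleep were not measured in these files, and handling, waking and eating cannot be told apart at T30.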

How the data were processed

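Livers were ground and their RNA was sequenced single-end on an Illumina HiSeq 4000 after TruSeq Stranded mRNA preparation, with over 24000000 mappable reads per library, per the labels' protocols. Per the submitters' processing notes the tools were fastp, STAR 2.7.0e and edgeR with the build GRCm38 (mm10), and counting and filtering steps are not given in the sources used here. For liver the authors deposited 1 table of log2 CPM values. Depth per library is not in that table, and linear sums of CPM ran from 919700 to 1070000 per library. Of 13373 entries 35 without a gene name (0.0337% of the signal) were left out. The cortex table was not analysed here.

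The 62 liver libraries of 17 groups were fitted in limma 3.58.1 (R 4.3.3) with a mean trend, label batch as a covariate, and 2 further covariates, with 42 residual degrees of freedom. Those 2 are directions across libraries along which every gene of the deposited table is 0, and how they arose is not stated in these sources. Tests were two-sided, with Benjamini-Hochberg adjustment over all 13338 genes and a threshold of 0.05. Changes are the fit's estimates in log2 CPM, adjusted for label batch and those 2 directions, so they can depart from differences of group means. Fold changes are their antilogs. P-values measure the spread between mice. The fit was tested on simulated data with 200 changed genes. Promoter sequences are from RefSeq (GRCm38.p6) and gene positions from GENCODE M21 on the same build. Animal codes of the libraries (such as T6N3) name mice.

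The genes, lists and comparisons were chosen with earlier results of these data known. Named genes are the 10 largest rises and falls with groups that did not overlap, up to 4 called members per list by smallest p, all members of the clock and cold-induced lists, and the steepest differences between light and dark and changes before and after ZT3, and some of them are not reported here. Alb, Cyp2a4, Cyp7a1, Cyp8b1, Ddit3, Dusp1, Fasn, Fkbp5, G6pc, Herpud1, Hsp90aa1, Hspa1b, Hspa5, Hspd1, Pck1, Ppp1r3c, Ppp1r3g and Pygl fall outside this rule and were chosen after their values were seen.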

Additional observations from a re-analysis of the deposited data

Results flagged for a closer look

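Among the 122 named genes, tested at ZT0 and at ZT6, 23 of 244 groups held a library that lay apart from its nearest neighbour by more than Dixon's 95% limit, where chance alone gives about 1 in 20, or 12.2. Of these, 12 were in the ZT6 library T6N3. It was the highest ZT6 library, in log2 CPM, for Ahsg at 13.41 (next 13.08), Cela2a at 1.11 (next -0.73), Chka at 6.45 (next 5.16), Chordc1 at 5.48 (next 4.97), Edem1 at 7.56 (next 7.39), Hsph1 at 5.81 (next 4.41), Hyou1 at 7.90 (next 7.05), Manf at 6.44 (next 5.48) and Syvn1 at 6.79 (next 6.01). It was the lowest for Cyp2e1 at 12.15 (next 12.43), Nr1d2 at 6.44 (next 7.06) and Phka2 at 5.16 (next 5.41). In library J76N2 the lowest values were those of Igfbp2 at 8.18 (next 8.76) and Nolc1 at 4.34 (next 4.54).

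At ZT0 the isolated libraries were spread over 5 mice. T0N1 had the lowest Dgat2 at 8.12 (next 8.36). T0N2 had the highest Hsph1 at 6.78 (next 6.39). T0N3 had the lowest Clock at 6.35 (next 6.69) and Tdo2 at 10.11 (next 10.42) and the highest Bhlhe41 at -0.29 (next -1.41). T0N5 had the highest Cpt1a at 8.47 (next 8.12). T0N9 had the lowest Arntl at 5.08 (next 5.40) and Cdkn1a at 2.45 (next 3.40) and the highest Sirt3 at 6.43 (next 6.26). 

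The change in the light span differed from that in the dark span for 4168 genes by the test of the difference itself. Among the named genes the difference (light minus dark, log2) was 11.27 for Rgs16, 10.41 for Dbp, 7.58 for Ciart and 7.37 for Nr1d1, and -8.33 for Npas2, -6.76 for Arntl, -6.73 for Slc34a2 and -6.40 for Elovl3.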

How the results depend on the processing

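The count from ZT0 to ZT6 was 1133 within the first label batch, 1001 within the second and 1461 with only the T24 libraries as ZT0, each with fewer mice, and within 1.5 times 2662 under the other settings tried. Added after seeing the data, the first batch alone gave 20 genes from ZT0 to ZT3, 135 from ZT3 to ZT6 and 1214 between T30 and ZT6. Leaving out single libraries gave 1951 to 2679 genes from ZT0 to ZT6, 11 to 49 from ZT0 to ZT3, 123 to 356 from ZT3 to ZT6, 331 to 417 from T192 to T198, 479 to 1722 from T72 to T78, 662 to 1965 between T30 and ZT6, and 3837 to 4352 for the difference between light and dark. Where 1 of 3 libraries is left out, the fit takes the spread from all groups. The only reversals were in Rora, uncalled throughout, at -0.13 in the second batch and between -0.0057 and 0.066 without single libraries, lowest without T0N1; the cause was not tested. Of the 122 named genes 37 lost their call in the first batch alone and 41 in the second. With only the T24 libraries as ZT0 30 lost it, with only the T0 libraries 16, and in a fit of ZT0 and ZT6 libraries alone 10. Junb lost it in both batches and in that last fit, and gave 0.39 (adjusted p = 0.482) with only the T24 libraries. Centring each library on its median moved the split of calls to 1448 higher and 1230 lower. No paired analysis was possible because each library of the comparison is another mouse and the animal codes pair no mouse at ZT0 with a mouse at ZT6. The table gives no counts, so counting error at low levels, as in Pde6c or Cela2a, could not be set beside the spread between mice.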

Other observations

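Dmbt1, a secreted scavenger receptor gene, had the largest change among the genes that did not pass, 4.12 ± 2.07 log2 units (SE, adjusted p = 0.164). Its level varied between mice of the same time more than between the times. At ZT0 it was 6.41 log2 CPM in T0N1 and 6.16 in J70N1, and -3.83 in T0N2 and -5.45 in T0N9. At ZT6 it was 8.35 in T6N4 and 7.69 in T6N2, and -2.89 in T6N3. The gene was named after its values were seen.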
